A study of Mus musculus with 32 samples.

Results

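The 10 genes described here report on oxygen supply and on glycolysis, and they were followed through the forebrain (Fb) and midbrain (Mb) of mouse embryos with and without exencephaly. They were matched by Ensembl identifier, and all 10 were among the 48576 genes of the RNA-seq files. Vegfa and Adm encode secreted peptides that act on blood vessels, Slc2a1 the glucose transporter GLUT1, Pgk1 and Ldha glycolytic enzymes, and Pdk1 a mitochondrial kinase that inhibits pyruvate dehydrogenase. Bnip3 encodes a mitochondrial protein of mitophagy, Ndrg1 a cytoplasmic stress-response protein, Egln3 the oxygen sensor PHD3, and Ankrd37 an ankyrin repeat protein.

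In cells with enough oxygen, prolyl hydroxylases of the Egln family mark HIF alpha subunits for destruction through VHL. When oxygen falls the subunits persist, pair with ARNT and bind DNA at a short core sequence, and genes such as these are transcribed more. The early embryonic neural tube is known for low oxygen and for a high use of glycolysis, and an open neural tube exposes to the amniotic fluid the surface that a closed tube keeps inside.

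The RNA came from E9.5 embryos on a B6C3F1 background, with Fb and Mb collected separately, and was sequenced as 16 libraries of each tissue. Each tissue had 6 libraries from wild type (WT), 4 from the Cdh6, Cdh8 and Cdh11 triple knockout with exencephaly (TKO_Ex), 3 from a double knockout with exencephaly (DKO_Ex) and 3 from a double knockout whose head was malformed but not exencephalic (DKO_CD). The sample labels name DKO_Ex as Cdh8.11 and DKO_CD as Cdh6.8, while the paper names both as Cdh8/11. The mutants carry small frameshift deletions made by genome editing and descend from crosses of triple heterozygotes that go back to a single founder. The WT embryos came from separate matings of WT mice, so genotype and cross cannot be told apart in the comparisons with WT. Genes closely linked to the deletions may have been inherited with them. Ankrd37 lies on chromosome 8 with Cdh8 and Cdh11, and Ndrg1 lies on chromosome 15 with Cdh6. By the positions that the paper gives for the edited sites, both lie far from the deletions and are not closely linked genes. Whether either was inherited with a deletion was not tested. In 12 double knockout files the heading of the value column disagrees with the record on which of the double knockout groups it belongs to. The groups follow the headings, and every comparison that uses DKO_Ex or DKO_CD depends on that choice.

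The values are FPKM, fragments scaled to transcript length and to the mapped fragments of the library, in which levels can be compared between genes of different length. The depth recovered from the smallest steps between values was 1.94 to 3.24 M fragments per library. In the Mb it was lowest in TKO_Ex, at 1.94 to 2.324 M, and highest in DKO_Ex, at 3.072 to 3.228 M. Depth and group thus move together there, and the part of depth in the Mb comparisons was not tested.

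Of the targeted genes, Cdh6 ranged from 1.04 to 3.55 FPKM over 6 WT Mb libraries. In TKO_Ex Mb replicates 1 to 4 it was at 0.388, 0.353, 3.10 and 0.345 FPKM. The library labelled TKO_Ex Mb replicate 3 therefore lay within the WT range, and the Fb library of that number did so too, at 3.74 FPKM. Cdh6 in the DKO_CD Mb, at 1.29 to 2.11 FPKM, overlapped WT. Cdh8 ranged from 1.14 to 10.1 FPKM in WT and from 0.851 to 2.32 FPKM in TKO_Ex, from 1.63 to 2.49 FPKM in DKO_Ex and from 1.005 to 1.47 FPKM in DKO_CD, all in the Mb. Cdh11 ranged there from 17.9 to 28.7 FPKM in WT, from 14.5 to 16.6 FPKM in TKO_Ex, from 17.6 to 18.7 FPKM in DKO_Ex and from 16.7 to 27.2 FPKM in DKO_CD. Both double knockouts overlapped WT there for each of the 3 genes. Frameshift deletions need not remove a transcript, so these levels check the labels in part. Cdh6 was nevertheless below every WT Mb library in TKO_Ex Mb replicates 1, 2 and 4. Every Mb library of DKO_CD and of DKO_Ex (1.86 to 3.12 FPKM) lay above those replicates. The label Cdh6.8 of DKO_CD is therefore in doubt. Another library that stood apart was WT Mb replicate 5, in which the midbrain markers summed to 36.5 FPKM, the lowest of the WT Mb, where the highest reached 194.9 FPKM. Forebrain markers summed to 243 FPKM on average in the WT Fb and 29.3 FPKM in the WT Mb, where the forebrain gene Rax was listed at 0 in every library. Fold changes against WT in the Mb that moved by over 1.5 times without TKO_Ex Mb replicate 3 are given with and without it where they were larger than 0.1.

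The 10 genes differed widely in level. Averaged over the 32 libraries, Ldha was at 1013 FPKM and ranked 120 of the 48576 genes. Pgk1 followed at 225 FPKM and Slc2a1 at 150 FPKM. Vegfa was at 34.8 FPKM, Pdk1 at 26.0 FPKM and Bnip3 at 20.3 FPKM. Ankrd37 was at 5.86 FPKM, Egln3 at 3.70 FPKM and Ndrg1 at 1.32 FPKM. Adm came last at 0.636 FPKM and was listed at 0 in 8 libraries, where a 0 can be a failed estimate. A value of Vegfa rested on about 31 to 571 fragments, a value of Ndrg1 on at most 33 and a value of Adm on at most 8. The lower figure takes the median transcript length of the gene and the upper figures the longest. The span of Vegfa thus also holds this change of length. Ldha and Pgk1 have processed pseudogenes that can take some of their reads, so their levels are uncertain to that extent.

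On GRCm38 the genes are spread over 8 chromosomes. Vegfa (ENSMUSG00000023951) lies on chromosome 17 from 46016993 to 46032369, Slc2a1 (ENSMUSG00000028645) on 4 from 119108711 to 119137983 and Pgk1 (ENSMUSG00000062070) on X from 106187100 to 106203699. Chromosome 7 holds Ldha (ENSMUSG00000063229) from 46841475 to 46855627, Bnip3 (ENSMUSG00000078566) from 138890836 to 138909519 and Adm (ENSMUSG00000030790) from 110627661 to 110629820. Pdk1 (ENSMUSG00000006494) lies on 2 from 71873224 to 71903858, Egln3 (ENSMUSG00000035105) on 12 from 54178981 to 54203860, Ndrg1 (ENSMUSG00000005125) on 15 from 66929318 to 66969640 and Ankrd37 (ENSMUSG00000050914) on 8 from 45996902 to 46005707.

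The promoters of Pgk1, Ldha, Pdk1, Egln3 and Bnip3 are shown because the levels of these genes followed the mean of the other members most closely between libraries of the same group, as described further on. Each is the 250 bases before a RefSeq transcription start on GRCm38.p6, written along the strand of the gene. Capitals mark ACGTG and GCGTG, the letters of the HIF core, and their reverse complements CACGT and CACGC. The letters CACGTG hold 2 of these matches that overlap. The windows are chrX:106186850-106187099 (plus strand), chr7:46845554-46845803 (plus), chr2:71872974-71873223 (plus), chr12:54203875-54204124 (minus) and chr7:138909507-138909756 (minus), of which the last holds 13 bases of an annotated exon.

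Pgk1: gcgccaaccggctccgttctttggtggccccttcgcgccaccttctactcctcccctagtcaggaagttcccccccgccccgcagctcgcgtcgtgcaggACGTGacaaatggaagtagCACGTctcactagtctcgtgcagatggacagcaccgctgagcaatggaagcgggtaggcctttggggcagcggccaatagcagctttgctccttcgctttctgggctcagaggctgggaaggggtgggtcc
Ldha: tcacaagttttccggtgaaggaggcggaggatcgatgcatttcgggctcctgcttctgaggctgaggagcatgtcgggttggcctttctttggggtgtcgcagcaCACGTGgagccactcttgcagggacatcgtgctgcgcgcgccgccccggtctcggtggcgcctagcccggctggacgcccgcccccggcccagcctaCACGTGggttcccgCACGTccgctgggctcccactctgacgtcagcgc
Pdk1: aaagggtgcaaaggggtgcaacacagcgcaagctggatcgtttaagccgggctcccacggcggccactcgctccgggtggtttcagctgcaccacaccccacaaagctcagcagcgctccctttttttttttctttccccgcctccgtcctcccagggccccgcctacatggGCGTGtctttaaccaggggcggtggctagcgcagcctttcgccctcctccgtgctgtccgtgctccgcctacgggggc
Egln3: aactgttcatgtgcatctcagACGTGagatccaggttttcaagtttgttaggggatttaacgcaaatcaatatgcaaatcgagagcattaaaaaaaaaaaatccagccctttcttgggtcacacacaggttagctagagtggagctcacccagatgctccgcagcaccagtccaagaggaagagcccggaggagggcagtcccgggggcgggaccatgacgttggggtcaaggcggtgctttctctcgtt
Bnip3: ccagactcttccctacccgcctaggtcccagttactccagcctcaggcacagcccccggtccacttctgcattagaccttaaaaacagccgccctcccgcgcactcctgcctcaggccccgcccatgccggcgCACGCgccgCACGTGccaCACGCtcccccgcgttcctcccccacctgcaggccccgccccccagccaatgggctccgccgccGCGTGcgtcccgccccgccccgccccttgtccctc

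The Pgk1 window held 2 matches of the ACGTG kind, the Ldha window 5 with 2 of the longer CACGTG, the Egln3 window 1, and the Pdk1 window a single GCGTG. The Bnip3 window held 2 of the ACGTG kind, which overlap in 1 CACGTG, and 3 of the GCGTG kind. RefSeq windows were found for 9 of the 10 genes (Ndrg1 was not matched), and 8 of the 9 held at least 1 of the 4 words in their first window. The first window of Vegfa held no match, which says only that these letters are not in those 250 bases. Of all 32851 windows of the same length, 16.6% held ACGTG or CACGT, 28.2% held GCGTG or CACGC, and 38.6% held any of them. The share of G and C was 62.8% in the printed Pgk1 window, 67.2% in that of Ldha, 72.4% in that of Bnip3 and 50.8% in that of Egln3, against a median of 52.4% over all windows. A match of 5 letters is a description of the sequence and not a bound site.

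In the exencephalic Mb none of the 9 members tested passed the threshold against WT, and Vegfa and Bnip3 had fold changes of opposite sign in the exencephalic groups. Differences were tested with limma on log2(FPKM + 1), with p-values adjusted over all genes by the Benjamini-Hochberg method, and genes whose mean over the fitted libraries was under 1 FPKM were left out. Adm never reached that level and has values only. Ndrg1 reached it in the Mb but not in the Fb. No member passed an adjusted p of 0.05 in the TKO_Ex Mb (0 of 9 tested, where 0.0898% of all genes passed) or in DKO_Ex (0 of 9, background 0.0903%). An unadjusted p under 0.05 was reached by 1 of 9 in TKO_Ex, where 8.38% of all genes reached it, and by 2 of 9 in DKO_Ex, where 5.46% did. The p-values measure the spread between these libraries, and a smaller number of cells of a type and less RNA per cell cannot be told apart in bulk tissue.

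**Figure D1:**
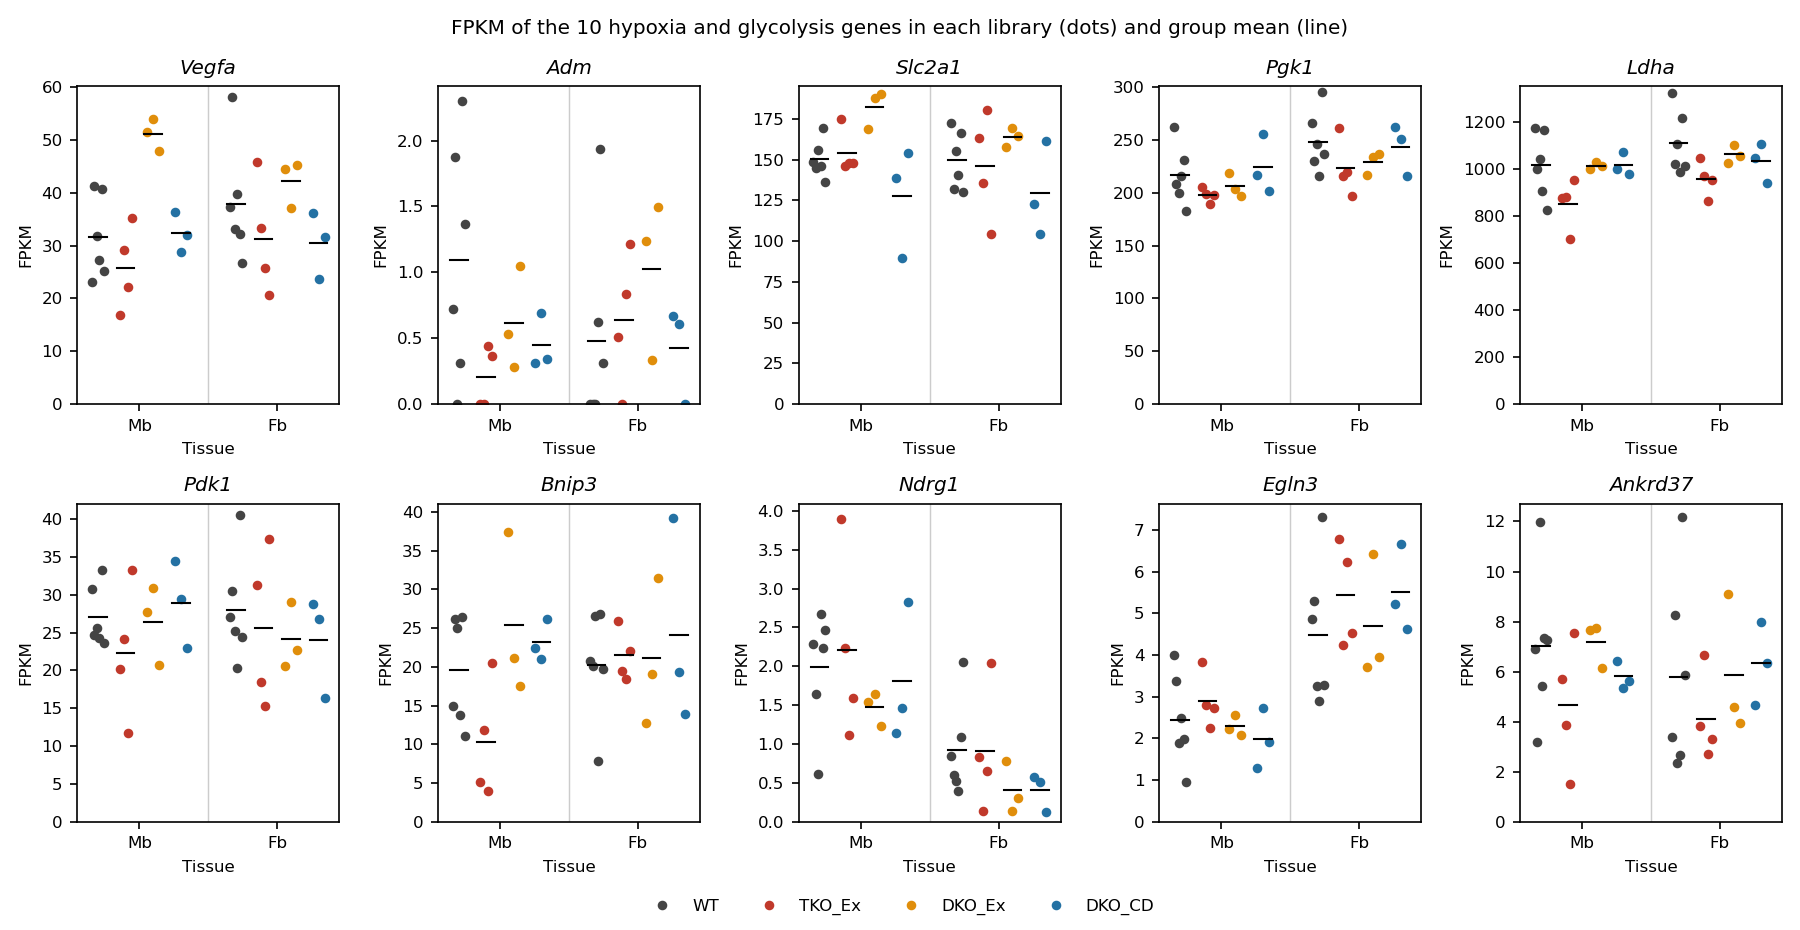
FPKM of the 10 genes in each of the 32 libraries, by group (colour), with the Mb left and the Fb right in each panel; points are libraries, lines are group means and the axes start at 0. The 3 DKO_Ex Mb libraries of Vegfa sit between 47.8 and 53.9 FPKM, above the highest WT Mb library at 41.2 FPKM, and the mean of Egln3 is higher in the Fb than in the Mb in each group.

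Vegfa, the main growth factor of embryonic vessels, gave the clearest separation among the ligands. In the WT Mb it ran from 23.1 to 41.2 FPKM with a median of 29.5. In the DKO_Ex Mb it was at 51.4, 53.9 and 47.8 FPKM, and in the TKO_Ex Mb at 16.9, 29.1, 22.2 and 35.1 FPKM. In DKO_CD it was at 36.3, 28.8 and 31.9 FPKM. The 3 DKO_Ex libraries thus lay above every other Mb library, while TKO_Ex overlapped WT from below and DKO_CD lay within it. Against WT the log2 fold change of Vegfa in DKO_Ex was 0.71 (standard error 0.19, 95% interval from 0.29 to 1.13; limma, unadjusted p = 0.00338, adjusted p = 0.509). It was the only member without overlap in that comparison, in which 2.01% of all genes lay above WT in this way. The fold change stayed between 0.63 and 0.79 with each library left out, and it was 0.79 without WT Mb replicate 5. When the files are grouped by record instead, the DKO_Ex value becomes 0.06 and the high libraries belong to DKO_CD.

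In TKO_Ex the fold change of Vegfa was -0.29 in the Mb (95% interval from -0.78 to 0.19; limma, adjusted p = 0.775) and -0.28 in the Fb. Both sizes depend on single libraries. On the log2 scale TKO_Ex Mb replicates 1 and 4 lay at -0.53 and 0.48 from their group mean. The Fb libraries of those numbers lay at 0.59 and -0.52. In the Fb Vegfa ran from 26.7 to 58.1 FPKM in WT with a median of 35.2. The DKO_Ex Fb values were 44.5, 37.1 and 45.3 FPKM, the TKO_Ex Fb values 45.7, 33.3, 25.7 and 20.6 FPKM, and the DKO_CD Fb values 36.1, 23.6 and 31.7 FPKM. All 3 mutant groups overlapped WT there, and the DKO_Ex effect in the Mb exceeded that in the Fb by 0.52 (standard error 0.29; limma, unadjusted p = 0.0914). As an interaction, 0 of 9 members passed in DKO_Ex (0% of all genes) and 0 of 9 in DKO_CD (background 0.00746%), and 0 had an unadjusted p under 0.05 in either, where 3.88% and 4.83% of all genes did.

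Adm, which encodes the vessel-acting peptide adrenomedullin, was at or near the lower limit throughout. In the WT Mb it ran from 0 to 2.30 FPKM with a median of 1.05, and in the WT Fb from 0 to 1.94 FPKM with a median of 0.154. The mutant libraries ran from 0 to 1.498 FPKM, inside the range of WT. No order between groups can be read from values that rest on so few fragments.

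Slc2a1, through which glucose enters the neuroepithelium, ran from 136 to 169 FPKM in the WT Mb with a median of 148. It was at 169, 188 and 190.3 FPKM in the DKO_Ex Mb, at 175, 146, 148 and 148 FPKM in the TKO_Ex Mb, and at 139, 89.6 and 154 FPKM in the DKO_CD Mb. Of the DKO_Ex libraries 2 lay above all WT libraries, and the first lay just under WT Mb replicate 5. The log2 fold change of Slc2a1 in DKO_Ex against WT was 0.28 (standard error 0.088, 95% interval from 0.08 to 0.47; limma, unadjusted p = 0.00976, adjusted p = 0.739), and 0.31 without WT Mb replicate 5. In TKO_Ex it was 0.04 (95% interval from -0.15 to 0.22). With the record grouping the DKO_Ex value of Slc2a1 becomes -0.27.

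The glycolytic enzymes were the most even members. Pgk1, which makes the first ATP of the payoff phase, ran from 183 to 262 FPKM in the WT Mb (median 212) and lay at 206, 199, 189.5 and 198 FPKM in the TKO_Ex Mb. The DKO_Ex Mb libraries held 219, 204 and 197 FPKM. All of these lay within the WT range, with fold changes of -0.12 (95% interval from -0.33 to 0.09) in TKO_Ex and -0.06 (from -0.31 to 0.19) in DKO_Ex. In the DKO_CD Mb Pgk1 was at 217, 256 and 202 FPKM, within WT as well.

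Ldha, which turns pyruvate into lactate, ran from 825 to 1173 FPKM in the WT Mb with a median of 1021. It was at 876.5, 879.5, 704 and 952 FPKM in the TKO_Ex Mb, between 1000 and 1032 FPKM in the DKO_Ex Mb and between 980.2 and 1073 FPKM in the DKO_CD Mb. The TKO_Ex libraries sat in the lower part of the WT range, with replicate 3 below it. The log2 fold change in TKO_Ex was -0.25 (standard error 0.12; limma, unadjusted p = 0.0537, adjusted p = 0.602), and -0.16 without replicate 3. A value of like size, -0.21 (limma, unadjusted p = 0.0508, adjusted p = 0.575), was found in the TKO_Ex Fb, where Ldha was at 1047, 971, 864 and 952 FPKM against 989 to 1323 FPKM in WT.

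Bnip3, whose product marks mitochondria for removal, varied widely. In the WT Mb it ran from 11.03 to 26.4 FPKM with a median of 19.96, and in TKO_Ex Mb replicates 1 to 4 it was at 5.09, 11.8, 3.97 and 20.6 FPKM. The DKO_Ex Mb libraries had 37.4, 21.2 and 17.6 FPKM, and the DKO_CD Mb libraries 22.5, 21.1 and 26.2 FPKM. Replicates 1 and 3 of TKO_Ex lay below all WT libraries and replicates 2 and 4 among them, while DKO_Ex replicate 1 lay above them. The other DKO_Ex libraries lay on either side of the WT median, so the positive sign in DKO_Ex rested largely on replicate 1. The log2 fold change of Bnip3 in the TKO_Ex Mb was -1.03 (standard error 0.41, 95% interval from -1.92 to -0.14; limma, unadjusted p = 0.0276, adjusted p = 0.541). Without TKO_Ex Mb replicate 3 it was -0.71 (unadjusted p = 0.103), and without replicate 4 it was -1.42. In the TKO_Ex Fb Bnip3 was at 25.9, 19.5, 18.4 and 22.1 FPKM, inside the WT Fb range of 7.82 to 26.9 FPKM. The Mb and Fb effects of TKO_Ex on Bnip3 differed by -1.18 (standard error 0.53; limma, unadjusted p = 0.0370, adjusted p = 0.756), and by -0.93 without replicate 3 of both tissues. That was 1 member of 9 at an unadjusted p under 0.05, where 6.5% of all genes had one, while 0 members and 0.0149% of all genes passed the adjusted threshold.

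Pdk1 ran from 23.6 to 33.3 FPKM in the WT Mb with a median of 25.2. It was at 20.3, 24.2, 11.8 and 33.2 FPKM in the TKO_Ex Mb and at 27.7, 30.8 and 20.8 FPKM in the DKO_Ex Mb. In TKO_Ex replicate 3 was again the lowest, against 23.6 FPKM in the lowest WT library, and replicate 4 came close to the WT maximum. The fold change of Pdk1 was -0.34 in TKO_Ex (limma, adjusted p = 0.744), which was -0.08 without replicate 3, and -0.04 in DKO_Ex. The DKO_CD Mb libraries held 34.5, 29.4 and 22.9 FPKM, on both sides of the WT range.

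Egln3, Ndrg1 and Ankrd37 showed no separation of the mutants from WT in the Mb. Egln3 ran from 0.952 to 4.01 FPKM in the WT Mb (median 2.23), and lay at 2.24 to 3.83 FPKM in TKO_Ex and at 2.08 to 2.57 FPKM in DKO_Ex, with fold changes of 0.23 and -0.01. The size of 0.23 depends on single libraries, since WT Mb replicates 1 and 6 lay at 0.60 and -0.76 from the WT Mb mean on the log2 scale. Ndrg1 ran from 0.62 to 2.67 FPKM in the WT Mb (median 2.26), and lay at 3.90, 2.23, 1.12 and 1.59 FPKM in TKO_Ex and at 1.55, 1.64 and 1.23 FPKM in DKO_Ex. Ankrd37 ran from 3.19 to 11.97 FPKM in the WT Mb (median 7.10), and lay at 5.70, 3.87, 1.53 and 7.54 FPKM in TKO_Ex and at 7.68, 7.76 and 6.15 FPKM in DKO_Ex. In the DKO_CD Mb Egln3 reached at most 2.73 FPKM, while Ndrg1 ran from 1.15 to 2.83 FPKM and Ankrd37 from 5.37 to 6.43 FPKM, all overlapping WT. TKO_Ex Mb replicate 3 was also the lowest of all Mb libraries for Ankrd37. Its fold change of -0.56 in TKO_Ex had a 95% interval from -1.35 to 0.23 (limma, adjusted p = 0.733), and it was -0.22 without that library.

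**Figure D2:**
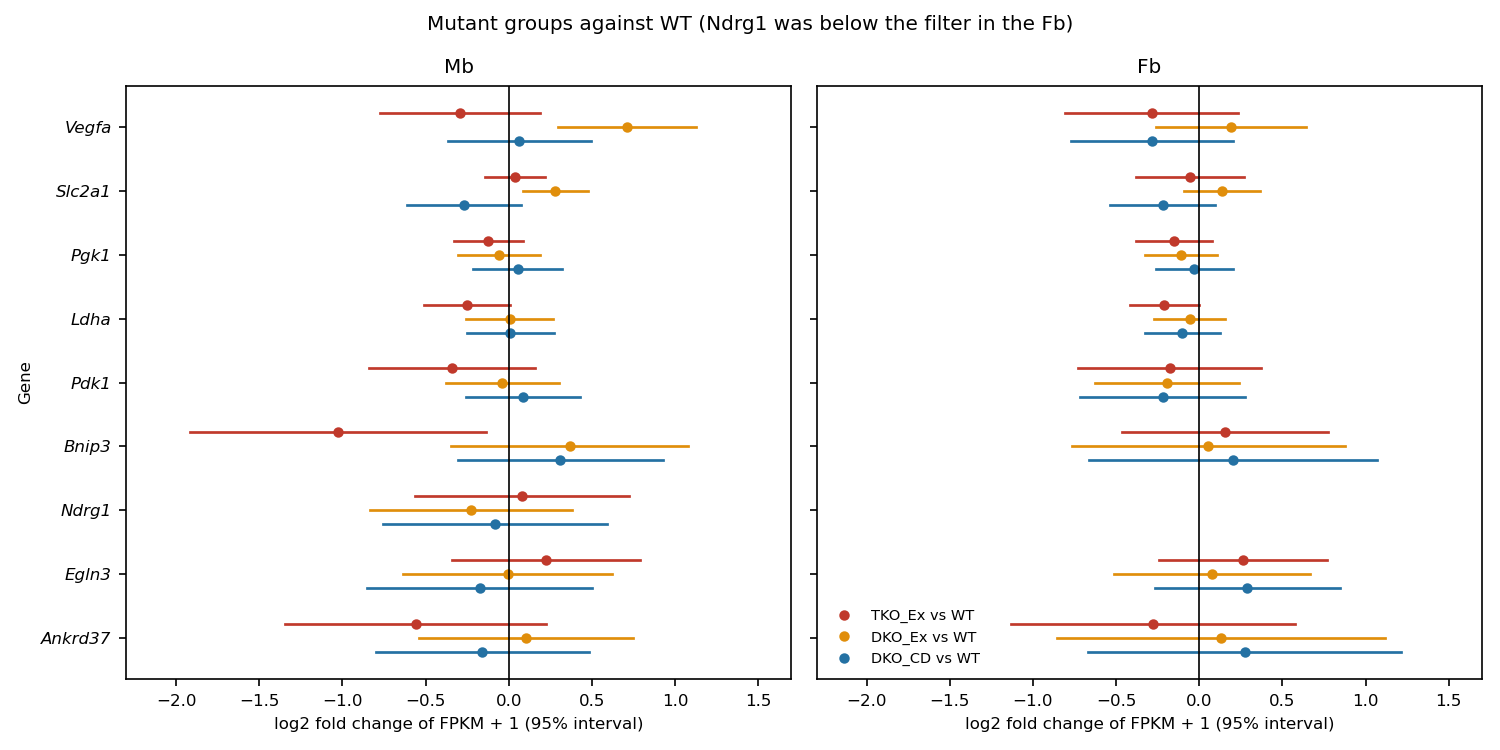
Fitted log2 fold change on the log2(FPKM + 1) scale, with 95% intervals from limma, of each tested gene in each mutant group against WT, in the Mb and in the Fb. The Mb intervals of Vegfa (0.29 to 1.13) and Slc2a1 (0.08 to 0.47) in DKO_Ex and of Bnip3 in TKO_Ex (-1.92 to -0.14) leave 0 out, and none of the adjusted p-values is under 0.05.

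Over the members as a list, the median log2 fold change in the TKO_Ex Mb was -0.25, against 0.02 over all genes, with 3 of 9 members above 0 where 53.4% of all genes were. Without TKO_Ex Mb replicate 3 the median was -0.10, against 0.01 over all genes. In the DKO_Ex Mb the median was 0.01, against 0.03, and 5 of 9 were above 0, where 55.7% of all genes were. In the Fb 0 of 8 members passed the adjusted threshold (limma) in TKO_Ex (background 0.0603%), in DKO_Ex (0.0759%) and in DKO_CD (0.0378%), and 0 of 8 had an unadjusted p under 0.05 in each, where 8.66%, 7.01% and 8.44% of all genes did. In the DKO_CD Mb, too, 0 of 9 passed (background 0.0375%) and 0 of 9 had an unadjusted p under 0.05 (6.69% of all genes). These comparisons share the WT libraries of their tissue.

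The exencephalic Mb libraries were also set against the Mb libraries without exencephaly in a single fit over the 4 groups. No member passed (0 of 9, with 0% of all genes passing), and 1 had an unadjusted p under 0.05, where 6.09% of all genes had one. It was Slc2a1, with a log2 difference of 0.29 (standard error 0.098; limma, unadjusted p = 0.00904, adjusted p = 0.606). That difference was 0.17 without DKO_CD Mb replicate 2, the library at 89.6 FPKM, and it turned to -0.26 with the files grouped by record. For Vegfa the difference was 0.18 (95% interval from -0.15 to 0.51; -0.47 when grouped by record), for Bnip3 -0.48 (from -1.12 to 0.15) and for Ldha -0.13 (from -0.30 to 0.05). In the Fb the same contrast gave 0 of 8 members (0% of all genes), and 0 of 8 at an unadjusted p under 0.05 (5.75% of all genes).

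With the double knockouts alone, exencephaly was compared with the cranial defect. No member passed in the Mb (0 of 9, background 0.045%) or in the Fb (0 of 8, background 0.00753%). The DKO_Ex libraries lay above all DKO_CD libraries for 2 members in the Mb, where 6.46% of all genes did, and for 1 member in the Fb, where 3% did. At an unadjusted p under 0.05 there were 2 members in the Mb (6.48% of all genes) and 1 in the Fb (5.54%). By either measure they were Vegfa and Slc2a1 in the Mb and Vegfa in the Fb. The log2 difference of Vegfa was 0.65 in the Mb (standard error 0.12, 95% interval from 0.36 to 0.93; limma, unadjusted p = 0.000977, adjusted p = 0.418) and 0.48 in the Fb (limma, unadjusted p = 0.0309, adjusted p = 0.880). Without DKO_CD Fb replicate 2, the lowest library at 23.6 FPKM, the Fb value was 0.31. That library stood apart in surface ectoderm markers, at 212 FPKM against 95.1 and 78.8 FPKM in the other DKO_CD Fb libraries. For Slc2a1 in the Mb the log2 difference was 0.55 (standard error 0.20; limma, unadjusted p = 0.0270, adjusted p = 0.761), and it was 0.31 without DKO_CD Mb replicate 2, which held 89.6 FPKM. Grouped by record, each of these differences changes its sign.

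The exencephalic groups were set against each other after their values had been seen, and these differences are descriptions of that choice. In the Mb 0 of 9 members passed (limma, background 0.127%), and 4 of 9 had an unadjusted p under 0.05, where 7.46% of all genes had one. All 4 were lower in TKO_Ex than in DKO_Ex. Vegfa differed by -1.003 (standard error 0.22, 95% interval from -1.52 to -0.49; limma, adjusted p = 0.264), Slc2a1 by -0.24, Ldha by -0.26 and Bnip3 by -1.39. With the files grouped by record the difference of Vegfa was -0.36 and that of Slc2a1 turned to 0.30. For Vegfa and Ldha the libraries of the 2 groups did not overlap, where 3.74% of all genes lay lower in TKO_Ex in this way. Without TKO_Ex Mb replicate 3 the values were -0.95 for Vegfa and -0.17 for Ldha. In the Fb, where Vegfa differed by -0.48 (by -0.000105 when grouped by record), 0 of 8 members passed (background 0.0301%) and 0 of 8 had an unadjusted p under 0.05 (5.07% of all genes).

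Markers of other cell types were read in the same libraries. Endothelial markers, the cells on which Vegfa acts, summed to 45.9 FPKM on average in the WT Mb, 47.1 in TKO_Ex, 47.2 in DKO_Ex and 43.4 in DKO_CD, with Cldn5 the most abundant. Markers of primitive red cells, with Hbb-y the most abundant, summed to 14630 FPKM in the WT Mb (5222 to 23410), 15560 in the TKO_Ex Mb (13140 to 20230), 7916 in the DKO_Ex Mb (6549 to 9828) and 12950 in the DKO_CD Mb (6300 to 21170). The DKO_Ex Mb, with the highest Vegfa, thus had the lowest mean of red cell markers, though each of its libraries lay within the WT range. Mesenchyme markers summed to 134 FPKM in the WT Mb, 143 in TKO_Ex, 156 in DKO_Ex and 204 in DKO_CD. Surface ectoderm markers ran from 24 to 37.2 FPKM in the WT Mb and were at 20.8, 72.3 and 56.5 FPKM in the DKO_CD Mb. DKO_CD Mb replicate 2, the lowest for Slc2a1, was the highest Mb library for both lists. DKO_CD Mb replicate 3, the next Mb library for surface ectoderm, had the highest Slc2a1 of its group, at 154 FPKM. In the Fb surface ectoderm markers reached 229 FPKM in TKO_Ex replicate 4 and 212 FPKM in DKO_CD replicate 2, against 59.7 to 97.8 FPKM in WT. These were the lowest Fb libraries for Vegfa. The next for these markers were TKO_Ex Fb replicate 3 (170.7 FPKM), with Vegfa below the WT range, and DKO_Ex Fb replicate 2 (167.4 FPKM). In the latter Vegfa was at 37.1 FPKM, within the WT range. Immediate early genes, which respond to handling, summed to 89.9 FPKM in the WT Mb, 98.9 in TKO_Ex and 97.0 in DKO_Ex. The part of cell makeup in the differences of Vegfa, Slc2a1 and Bnip3 was not tested.

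Other genes of the pathway were read from lists. Of 20 further glycolytic enzymes and transporters, 0 passed in the Mb of TKO_Ex and 0 in that of DKO_Ex (limma), and at an unadjusted p under 0.05 there were 1 (lower) and 3 (higher), against 8.38% and 5.46% of all genes in either direction, the shares against which the lists that follow are also to be read. Their median log2 fold change was -0.11 in TKO_Ex and 0.14 in DKO_Ex, where 17 of the 20 were above 0, as were 55.7% of all genes. Hk2, the inducible hexokinase, was at 41.4 to 51.9 FPKM in the DKO_Ex Mb and at 21.4 to 39.0 FPKM in the WT Mb, without overlap (log2 fold change 0.52; limma, unadjusted p = 0.0172, adjusted p = 0.830). The other values of larger size there were 0.47 for Ldhb, 0.37 for Aldoc (0.22 without WT Mb replicate 4) and 0.33 for Pfkp. For TKO_Ex they were -0.34 for the lactate exporter Slc16a3, 0.31 for Ldhb (0.05 without replicate 2 and 0.56 without replicate 3), -0.30 for Tpi1 (-0.20 without it) and 0.29 for Pfkp. The DKO_CD Mb, which becomes DKO_Ex when the files are grouped by record, had Hk2 at 13.8 to 32.3 FPKM. There Hk2 (25.4 FPKM) and Slc16a3 (91.6 FPKM) averaged below the WT Mb (32.8 and 129.4 FPKM). Ldhb (52.0 FPKM) and Eno1 (609 FPKM) averaged above it (38.4 and 581 FPKM). The DKO_Ex median of 0.14 and count of 17 are thus those of the grouping by heading.

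Among 12 oxygen sensors, HIF subunits and cofactors 0 passed in either exencephalic Mb, with 1 and 2 lower at an unadjusted p under 0.05 in TKO_Ex and DKO_Ex. Hif1a itself was at 31.5 ± 2.43 FPKM (SD, n = 6) in the WT Mb and 31.4 ± 3.57 FPKM (SD, n = 6) in the WT Fb. Of the hydroxylases, Egln1 was at 23.8 and 26.3 FPKM and Egln2 at 38.1 and 39.0 FPKM in the WT Mb and Fb, so that Egln3 was the least abundant of the 3. The largest fold changes in the DKO_Ex Mb were 0.49 for Crebbp, -0.40 for Cited2, -0.33 for Hif1an and -0.24 for Arnt. Crebbp was 0.14 without DKO_Ex Mb replicate 2, and Arnt ran from -0.40 without that library to -0.15 without replicate 3. For TKO_Ex they were 0.38 for Hif3a, -0.34 for Cited2, -0.23 for Egln1 and -0.22 for Ep300. With single libraries left out Ep300 ran from -0.33 to -0.10, and Cited2 was -0.20 without TKO_Ex Mb replicate 2. None of these passed the threshold.

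Of the other hypoxia-inducible genes, 27 were tested in the Mb of TKO_Ex and 26 in that of DKO_Ex, and 0 passed in either. In TKO_Ex 2 were lower at an unadjusted p under 0.05. These were Ddit4, an inhibitor of mTORC1, at a log2 fold change of -0.68, and the heme oxygenase gene Hmox1 at -0.49. Without TKO_Ex Mb replicate 3 neither had an unadjusted p under 0.05 (limma, 0.164 for Ddit4 and 0.0606 for Hmox1). Hmox1 lay at 6.13 to 6.81 FPKM over the 4 TKO_Ex Mb libraries, against 6.05 to 14.7 FPKM in WT. The size of its difference therefore does not rest on replicate 3. In DKO_Ex 2 were higher. They were the lipid droplet gene Hilpda at 0.57 (limma, unadjusted p = 0.00828, adjusted p = 0.724) and Hk2, which is in both lists. Hilpda was at 9.27 to 13.7 FPKM in the DKO_Ex Mb, at 5.40 to 9.35 FPKM in the WT Mb and at 9.33 to 14.4 FPKM in the DKO_CD Mb, so that both double knockouts were high for it. Of 11 tested genes of the pyruvate gate, 0 passed in either group, and at an unadjusted p under 0.05 there were 1 (lower) in TKO_Ex and 0 in DKO_Ex. The largest values were 0.53 for Pdk2 in TKO_Ex and 0.50 for the pyruvate dehydrogenase component Pdhx in DKO_Ex, which was 0.30 without DKO_Ex Mb replicate 2. Of the 7 tested receptors of Vegfa and adrenomedullin 0 passed (1 higher at an unadjusted p under 0.05 in TKO_Ex and 0 in DKO_Ex), with Calcrl at 0.65 in TKO_Ex (0.40 without replicate 4) and its partner Ramp2 at 0.38 in DKO_Ex (0.25 to 0.59 with single libraries left out).

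**Figure D3:**
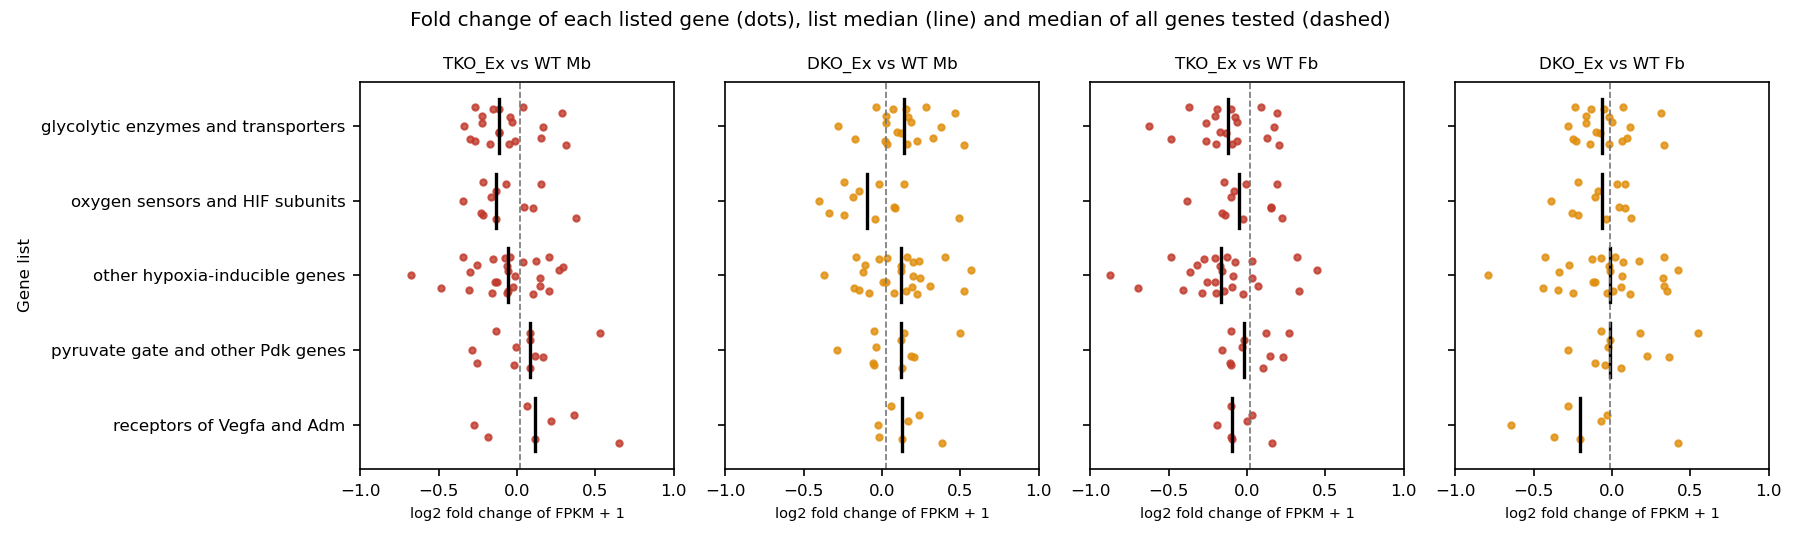
Log2 fold change against WT of every tested gene of 5 pathway lists in the Mb and Fb of TKO_Ex and DKO_Ex, with 1 point per gene, a solid line at the median of the list and a dashed line at the median of all genes tested. In the Mb the glycolytic list has a median of -0.11 in TKO_Ex and 0.14 in DKO_Ex, and no point passed the adjusted threshold.

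The Mb and the Fb were compared next. In WT alone 0 of 9 members passed between the Mb and the Fb (limma, background 8.26%), and 2 of 9 had an unadjusted p under 0.05, where 20.9% of all genes had one. The 2 were Egln3, with a log2 difference of -0.68 (Mb against Fb, standard error 0.25; adjusted p = 0.122), and Ndrg1, with 0.64 (standard error 0.25; adjusted p = 0.148). A fit over all 32 libraries, added after this result was seen and taking the Mb and Fb libraries as independent, averaged the tissue difference over the 4 groups. In it 3 of 9 members passed, where 15.1% of all genes did. Lower in the Mb were 2 members (background 6.77%) and higher was 1 (background 8.38%). Ndrg1 was among the 9 only because its Mb values lifted its mean over 1 FPKM, in WT as well, and these counts are not read against the background.

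Egln3 was at 0.952 to 4.01 FPKM over the 16 Mb libraries (2.44 ± 0.82, SD, n = 16) and at 2.89 to 7.31 FPKM over the 16 Fb libraries (4.95 ± 1.39, SD, n = 16). It was higher in the Fb in 16 of 16 pairs of libraries with the same group and number, though the ranges of the tissues overlap. The averaged difference of Egln3 was -0.83 (standard error 0.13, 95% interval from -1.10 to -0.56; limma, adjusted p = 2.0988e-05), and it passed in 41 of the 41 settings that tested it. Its size depends on the constant added before the log, from -1.06 with 0.1 FPKM to -0.43 with 5 FPKM. Egln3 is both a sensor of oxygen and a gene that HIF induces.

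Ndrg1 went the other way, with 0.62 to 3.90 FPKM in the Mb (1.91 ± 0.81, SD, n = 16) and 0.132 to 2.06 FPKM in the Fb (0.728 ± 0.58, SD, n = 16). The Mb library was higher in 15 of 16 such pairs. The averaged difference was 0.80 (standard error 0.16, 95% interval from 0.47 to 1.13; limma, adjusted p = 0.000462), and with no filter on low values its adjusted p was 0.000651. Ndrg1 passed the filter through its Mb values alone, so that a difference in this direction was favoured. With 0.1 FPKM added before the log it was 1.58, and with 5 FPKM it was 0.28. The values of Ndrg1 in the Fb rest on few fragments.

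Pgk1 was lower in the Mb, at 212 ± 21.9 FPKM (SD, n = 16) against 238 ± 25.1 FPKM in the Fb (SD, n = 16), and the Fb library was higher in 13 of 16 pairs. Its averaged difference of -0.16 (standard error 0.053; limma, adjusted p = 0.0447) was at the edge of the threshold. It passed in 17 of 42 settings, where the adjusted p ran from 0.0168 to 0.359, and it did not pass without TKO_Ex Mb replicate 3. Ldha was higher in the Fb in 15 of 16 pairs, at 976 ± 120 FPKM in the Mb and 1049 ± 110 FPKM in the Fb (SD, n = 16 each), with a difference of -0.10 (limma, adjusted p = 0.277) that did not pass. It passed with the group and number of the libraries as a replicate block (limma, adjusted p = 0.037), in 1 of 42 settings. Vegfa (-0.03, 95% interval from -0.28 to 0.21), Slc2a1 (0.06, from -0.10 to 0.22) and Pdk1 (0.05, from -0.23 to 0.33) did not pass either.

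**Figure D4:**
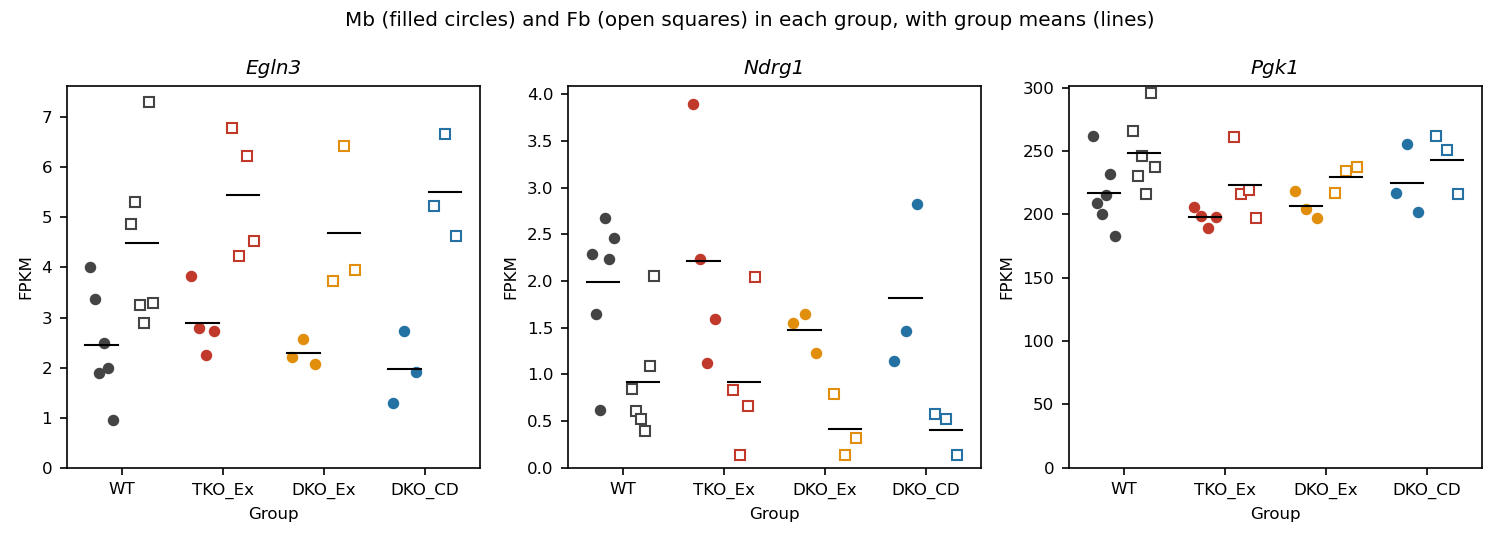
FPKM of Egln3, Ndrg1 and Pgk1 in the Mb (filled circles) and the Fb (open squares) of each group, with lines at the group means and axes that start at 0. In each of the 4 groups the mean of Egln3 is higher in the Fb and the mean of Ndrg1 is higher in the Mb, while the tissue means of Pgk1 lie close to each other.

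The remaining pathway genes also differed by tissue in both directions. In WT, where 8.26% of all genes passed, 4 of 20 glycolytic genes were lower in the Mb and 0 were higher (Hk2 -0.55, Aldoa -0.36, Ldhb -0.86 and the monocarboxylate transporter Slc16a1 -0.40; limma, adjusted p from 0.0162 to 0.0426). Over all groups 7 of 20 were lower and 0 higher, while 6.77% of all genes were lower and 8.38% higher. These were Aldoa, Tpi1, Pgam1, Eno1, Pkm, Ldhb and Slc16a1, with differences from -0.12 (Pkm) to -0.68 (Ldhb). The WT count of 4 was 1 without WT Mb replicate 6 or WT Fb replicate 2 or 5, and 2 without WT Mb replicate 3 or 4 or WT Fb replicate 3. The count of 7 over all groups was 4 after quantile normalization. Hk2 acts at the entry of glycolysis, while Ldhb and Slc16a1 handle lactate. At the pyruvate gate, 2 of 11 genes were higher in the WT Mb. They were Pdha1, a subunit of pyruvate dehydrogenase, at 0.42 (106 ± 7.36 against 79.3 ± 6.48 FPKM, SD, n = 6 each), and Pdp1, the phosphatase that opposes Pdk1, at 0.87 (4.97 ± 0.99 against 2.27 ± 0.58 FPKM). With Mpc1, a pyruvate carrier of mitochondria, 3 of 11 were higher over all groups and 0 lower, against 15.1% of all genes in either direction.

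Of 12 sensors and HIF subunits only Cited2 passed in WT, a share like the 8.26% of all genes. This gene encodes a competitor of HIF1A for the coactivator p300, and it was higher in the Mb (0.69; 85.1 ± 14.1 against 52.9 ± 11.1 FPKM, SD, n = 6 each; limma, adjusted p = 0.00624). Hif1a, Egln1 and Egln2 did not pass. Of 26 other hypoxia-inducible genes, 5 passed in WT (8.26% of all genes). The chemokine receptor gene Cxcr4 was higher in the Mb by 1.38 (40.8 ± 4.72 against 15.4 ± 4.20 FPKM), and Igfbp3 (-0.92), Hilpda (-0.57), Hk2 (-0.55) and Mif (-0.37) were lower. Without WT Fb replicate 5 the count was 3. Over all groups 7 of 27 passed (15.1% of all genes), with Cxcr4, Gys1 and Plod2 higher and Igfbp3, Stc2, Mif and Fam162a lower. Of 7 receptors 0 passed in WT (limma, 0 at an unadjusted p under 0.05), and Nrp2 and Ramp3 were higher in the Mb over all groups, a count of 2 that was 0 after quantile normalization.

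Markers of cell types moved with tissue too. Early neuron markers summed to 55.5 FPKM in the WT Mb and 10.6 in the WT Fb, neuroepithelial markers to 622 and 387.5, and surface ectoderm markers to 28.7 and 77.2. Among 8 immediate early genes Btg2 (1.05) and Klf6 (0.37) were higher and Ier2 (-0.45) lower in the WT Mb. The part of cell makeup and of handling in the tissue differences of Egln3 and Ndrg1 was not tested.

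Some of the members varied together between libraries of the same group. Deviations of log2(FPKM + 1) from the group mean were correlated over the 32 libraries for the 36 pairs of the 9 members that passed the filter. The libraries share their groups' means and differ in depth, and Mb and Fb libraries of the same number may share an embryo, so the coefficients are descriptions. Of the 36, 6 were above 0.5 and 6 were below 0, with a median of 0.16. Among all pairs of the 13441 genes of at least 1 FPKM, 1.21% were above 0.5, against 16.7% of the member pairs, and the median was 0.03. Those pairs were not matched to the members in level, so the part of level in this contrast was not tested. Without TKO_Ex Mb replicate 3 and WT Fb replicate 5, the libraries at the ends, 5 of the 36 were above 0.5 and 10 below 0, with a median of 0.09, while 1.31% of all pairs were above 0.5. The highest were 0.71 for Pgk1 with Ldha, 0.71 for Pgk1 with Egln3, 0.65 for Ldha with Pdk1 and 0.61 for Bnip3 with Pdk1, and without those libraries they were 0.73, 0.66, 0.56 and 0.54. Ldha followed the mean of the other members most closely (0.74), then Pdk1 (0.65), Pgk1 (0.61), Bnip3 (0.56) and Egln3 (0.51). Vegfa (0.13), Slc2a1 (0.02) and Ndrg1 (0.02) hardly did, and Vegfa with Ndrg1 gave -0.43 and with Pgk1 0.03. The promoters printed above are those of these 5. Vegfa had its highest coefficient with Bnip3, at 0.43.

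The size of the deviations differed as well. Bnip3 had a standard deviation within groups of 0.60 on the log2 scale, larger than 94.3% of genes of like level, and Ankrd37 (0.57), Pdk1 (0.39) and Vegfa (0.34) were above 83% of theirs. That of Pgk1 was 0.14, in the middle of genes of like level. When each gene was scaled to unit SD and averaged, TKO_Ex Mb replicate 3 had the lowest value of the 32 libraries at -1.30, with 9 of 9 members below the mean of its group. It was also the shallowest library, at 1.94 M fragments. WT Fb replicate 5 had the highest at 1.18, with 8 of 9 members above. WT Fb replicate 4 (-1.12) and WT Mb replicate 6 (-0.997) were low without any mutation. For this average the WT libraries thus spanned -1.12 to 1.18, close to the range of all libraries.

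**Figure D5:**
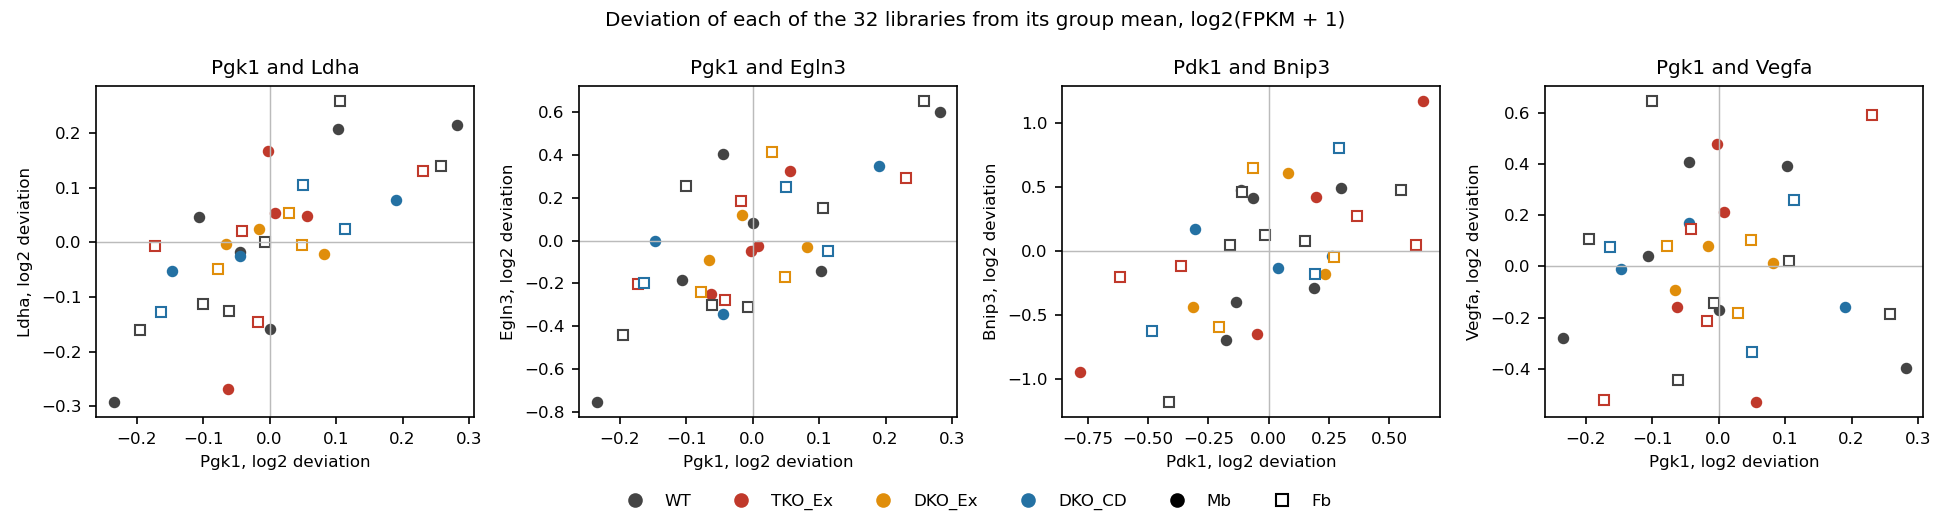
Deviation of log2(FPKM + 1) from the group mean in the 32 libraries for 4 pairs of genes, with 1 gene on each axis, colour for the group, and circles for the Mb and squares for the Fb. Pgk1 with Ldha (r = 0.71), Pgk1 with Egln3 (0.71) and Pdk1 with Bnip3 (0.61) line up, and Pgk1 with Vegfa (0.03) do not.

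Among genes outside the lists, those whose deviations were most like this average over the 32 libraries were Zhx3 (r = 0.68), Prrc1 (0.64), Ncaph2 (0.64), Kbtbd11 (0.62) and Gm27502 (0.61). Without the 2 libraries at the ends the coefficients were 0.60, 0.66, 0.59, 0.54 and 0.61 in the same order. They were picked as the highest among all genes of at least 1 FPKM.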

How the data were processed

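Fb and Mb RNA of E9.5 embryos was sequenced by the authors as directional libraries, aligned to GRCm38 with TopHat2 and summarised per gene by Cufflinks. The deposited values are FPKM, already normalised for length and library size. The read counts made with HTSeq and tested with DESeq2 by the authors were not used here. Versions are not given in the sources used here. FPKM of repeated identifiers were summed, names and positions came from GENCODE M21, and 0 columns of unknown samples were left out.

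In 12 double knockout files heading and record name opposite groups, and headings were followed. After genes whose mean over the fitted libraries was under 1 FPKM had been left out, limma 3.58.1 (R 4.3.3, eBayes with trend) was run on log2(FPKM + 1), with Benjamini-Hochberg adjustment over all of them and a threshold of 0.05. Mutant groups were set against WT of their tissue, and Mb against Fb effects by interaction. The contrast of the exencephalic groups and the averaged tissue contrast were added after the data were seen, as were the list genes with libraries left out and the pairs of all genes. The log2 scale with 1 added understates changes of low genes. Model scripts were tested on simulated data.

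Depth was recovered from steps between low values of 771 genes of at least 4000 bp, of which 84.3% to 94.2% per library were whole multiples of a fragment within 0.1. Named genes are the 10 members, list genes past the threshold or else up to 4 of largest fold change per list in the TKO_Ex or DKO_Ex Mb, and the 5 genes most like the members. Members and lists were chosen with earlier results of these data known. Labels do not say that libraries of the same number come from 1 embryo. No pair of the 496 had identical values.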

Additional observations from a re-analysis of the deposited data

Results flagged for a closer look

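In 2 of 40 groups of libraries of the members a single library stood far from the others, and chance gives about 1 in 20. The screen needs at least 4 libraries, so it covered WT and TKO_Ex only. The double knockout groups, with 3 libraries each, were not screened. Slc2a1 was at 175 FPKM in TKO_Ex Mb replicate 1, while the other 3 libraries of that group were at 146 to 148 FPKM. The gap made up 0.922 of the range of the group, over a limit of 0.829 for 4 samples. Adm was at 1.94 FPKM in WT Fb replicate 5, with a gap of 0.678 of the range over a limit of 0.625 for 6 samples, and it was listed at 0 in 3 of the other 5 libraries. WT Fb replicate 5 was also the library with the highest average of the scaled members.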

How the results depend on the processing

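Of 319 alternatives to the 14 comparisons planned at the start, 317 left 0 members past the threshold and 2 had 1. For WT Mb against Fb these were all groups in one fit (1, Egln3) and leaving out WT Mb replicate 3 (1, Ndrg1), so that leaving out a replicate gave 0 to 1. The averaged tissue contrast had 3 members, 2 to 3 with a replicate left out, and 1 (Pgk1) when at least 1 FPKM was asked of every library, since Egln3 and Ndrg1 were then not tested.

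Among the fold changes of members over all comparisons, 24 had an unadjusted p under 0.1, and grouping by record turned 7 of these. DKO_Ex against WT in the Mb became -0.27 for Slc2a1. DKO_Ex against DKO_CD became -0.65 (Vegfa) and -0.55 (Slc2a1) in the Mb and -0.48 and -0.36 in the Fb. Slc2a1 became -0.26 for exencephalic against other Mb libraries and 0.30 for TKO_Ex against DKO_Ex. No other of the 578 alternatives to these 24 turned one. Of the other 123, with a larger p and a size of at most 0.285 where turned, 77 changed sign under at least 1 alternative, 61 of them under one other than the record grouping, and Vegfa (-0.08 to 0.01) and Pdk1 (-0.01 to 0.11) between the tissues are among them.

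Libraries of the same group and number correlated between tissues at 0.008 to 0.14 (4 of 16 over 0.1, and 13 of 16 best with their own number), and those of different groups at -0.168 to 0.049, while Xist lay on the same side of 10 FPKM in 16 of 16 same-numbered Mb and Fb libraries. The sources do not say that a number marks an embryo, so the main fits left it out. The Xist values and the 13 of 16 point to it within groups. If a number does mark an embryo, its Mb and Fb libraries are not independent. The main tissue and interaction fits and the correlations over the 32 libraries counted them as separate. With the number as a replicate block the averaged tissue contrast had 4 members, Ldha among them (limma, adjusted p = 0.037), and the other comparisons had 0. At 1.94 to 3.24 M fragments, Adm, and Ndrg1 in the Fb, are close to the lower limit.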
